A study of Mus musculus with 6 samples.

Results

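The genes described here are 10 of the BCL2 family, chosen by name: *Bcl2*, *Bcl2l1*, *Mcl1* and *Bcl2a1b*, which keep cells alive, *Bax* and *Bak1*, which carry out the killing step, and *Bid*, *Bcl2l11*, *Bbc3* and *Pmaip1*, which set it off. All 10 symbols were found once in each of the 6 deposited tables of 34745 genes, and all 10 reached a mean FPKM of at least 1 (FPKM, the count per length of the gene and per size of the library), as did 9627 genes in all. RNA was sequenced from cultured splenic CD8+ effector T cells (Teff) of WT and Scd-1-/- mice, with 3 libraries each, numbered 1 to 3 in both genotypes. The methods give male mice of 6 to 8 weeks, with C57BL/6J as WT and B6.129-Scd1tm1Ntam/J, a germline deletion carried by every cell, as Scd-1-/-. The WT mice were bought and the Scd-1-/- mice came from another institute, and neither the methods nor the labels say how many mice stand behind a library. For any gene here, effects of strain background or origin cannot be told apart from those of the loss of Scd-1. Cells of both genotypes were stimulated for 3 days with antibodies to CD3 (5 μg/mL) and CD28 (0.5 μg/mL) plus 100 U/mL IL-2, were kept in IL-2 without the antibodies for 3 days, and were harvested after 6 days. Since nothing states that same-genotype libraries came from separate animals, the tests measure only the spread between these libraries.

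Proteins of the BCL2 family decide whether the outer membrane of the mitochondrion stays closed. BAX and BAK, once active, open pores through which cytochrome c escapes and starts the caspase cascade, and BCL2, BCL-XL (encoded by *Bcl2l1*), MCL1 and A1 (encoded by the *Bcl2a1* genes) hold them in check. The BH3-only proteins BID, BIM (encoded by *Bcl2l11*), PUMA (encoded by *Bbc3*) and NOXA (encoded by *Pmaip1*) bind these guardians or activate BAX and BAK directly. In T cells, BIM drives the contraction of effector populations, MCL1 is needed at every stage, BCL2 is kept up by IL-7 and IL-15, and A1 is induced by signals from the antigen receptor.

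Each library held 14034479 to 15866216 counts, and for a count of 0 the upper limit is 3 counts, or 0.189 to 0.214 CPM, for counting error only. *Scd1*, the deleted gene, had 4272, 3074 and 3761 counts in WT and 30, 36 and 20 counts in Scd-1-/- libraries. *Cd3e*, a marker of all T cells, was at 263 to 367 FPKM in the 6 libraries. Of the markers of the labelled CD8+ cells, *Cd8a* was at 43.2 to 47.6 FPKM in WT and lower in Scd-1-/- libraries, at 27.9 to 36.6 FPKM, without passing a threshold (log2 fold change -0.46, edgeR quasi-likelihood adjusted p = 0.297 without and 0.0630 with the replicate number as a block). *Cd8b1* was at 275 to 330 FPKM in WT and 202 to 299 FPKM in Scd-1-/- libraries, and was lower in all 3 same-numbered pairs (log2 fold change -0.30, edgeR quasi-likelihood adjusted p = 0.647 without and 0.124 with the block). Of markers of other cells, 5 of 9 B cell markers and 7 of 11 myeloid markers had at most 3 counts in any library. Replicate 1 of both genotypes stood apart from replicates 2 and 3 on the first principal component (42.9% of the variance), and the genotypes were parted on the second (36.3%).

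None of the 10 genes passed the thresholds of the study (unadjusted p under 0.001 and a log2 fold change, Scd-1-/- over WT, of at least 1 in either direction), which 0.738% of the 9627 genes passed. None had a Benjamini-Hochberg adjusted p under 0.05 by the quasi-likelihood test of edgeR, as 0.114% of the genes had. At an unadjusted p under 0.05 there were 2, *Bcl2a1b* and *Pmaip1*, against 10.1% of all genes, and DESeq2 gave 1 gene, *Bcl2a1b*, an adjusted p under 0.05, against 2.76%. With the replicate number as a block in the model, *Pmaip1* and *Bcl2a1b* had an adjusted p under 0.05, where 4.7% of all genes had one, and both were higher in Scd-1-/- cells, as 2.64% of all genes were with such a p. In bulk libraries such as these, fewer cells of a type and less RNA per cell cannot be told apart. No member passed the thresholds of the study with the block, where 1.91% of all genes did. The fitted log2 fold change was above 0 for all 10 members and for 49.9% of all genes, with a median of 0.39 over the members and 0.00 over all genes. For 5 of these 10 genes (*Bcl2*, *Mcl1*, *Bax*, *Bak1* and *Bid*) at least 1 same-numbered pair of libraries went the other way, and the sign of *Bcl2* and *Bax* turned in other fits.

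**Figure D1:**
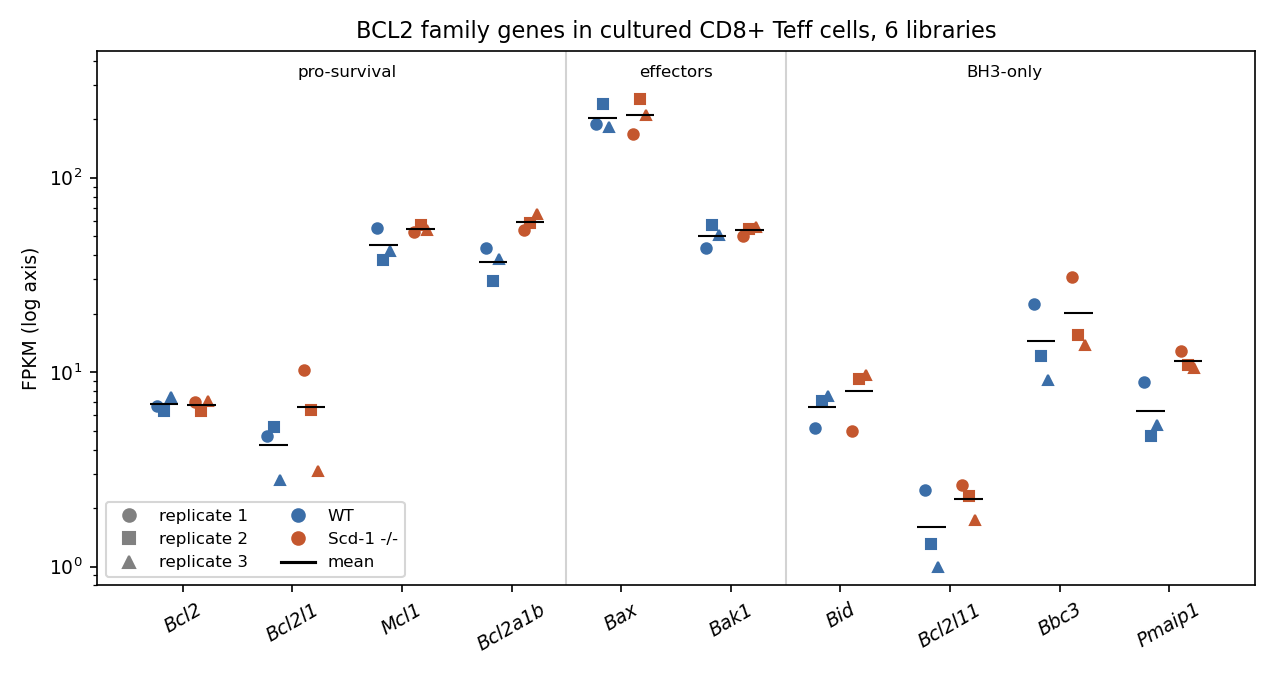
FPKM of the 10 BCL2 family genes (log axis) in each of the 3 WT and 3 Scd-1-/- libraries, with symbols for the replicate number and bars for the group means. The libraries of the 2 genotypes do not overlap for *Bcl2a1b* and *Pmaip1*, and replicate 1 of both genotypes lies above replicates 2 and 3 for *Bbc3*, *Bcl2l11* and *Pmaip1*.

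Among the genes that keep cells alive, *Bcl2* (ENSMUSG00000057329) lies on the minus strand of chromosome 1 of GRCm38, from 106538178 to 106714274. It had FPKM values of 6.72, 6.29 and 7.47 in WT replicates 1 to 3 and of 6.98, 6.28 and 7.11 in Scd-1-/- replicates 1 to 3. It was the steadiest of the 10 genes in WT, with a coefficient of variation of 8.74%. Its log2 fold change was 0.02 (SE 0.137, edgeR quasi-likelihood, Benjamini-Hochberg adjusted p = 0.980). The 95% interval ran from -0.30 to 0.34, or 0.811-fold to 1.26-fold, so that a change of 2-fold either way lay outside it.

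*Mcl1* (ENSMUSG00000038612, chromosome 3, 95658788 to 95663176, plus strand) had 55.2, 37.9 and 41.7 FPKM in WT against 52.4, 57.3 and 53.5 FPKM in Scd-1-/- replicates 1 to 3. WT replicate 1 was as high as the Scd-1-/- libraries, and the other 2 WT libraries were below all of them. MCL1 is a short-lived protein, so that its level depends on constant transcription and on its rate of breakdown, which RNA does not show. The log2 fold change of *Mcl1* was 0.29 (SE 0.169, edgeR quasi-likelihood adjusted p = 0.628, 95% interval -0.10 to 0.69). In replicates 2 and 3 alone it was 0.51 (adjusted p = 0.0157 from the same test), in a fit in which 12.6% of all genes had an adjusted p under 0.05.

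*Bcl2l1* (ENSMUSG00000007659, chromosome 2, 152780668 to 152831728, minus strand) encodes BCL-XL, which CD28 signals induce in activated T cells. Its FPKM was 4.70, 5.23 and 2.80 in WT and 10.3, 6.41 and 3.10 in Scd-1-/- replicates 1 to 3. Scd-1-/- replicate 1 was the highest by far, replicate 3 was the lowest in both genotypes, and the groups overlapped. The log2 ratio of same-numbered libraries was 1.12, 0.30 and 0.21 for replicates 1, 2 and 3. The log2 fold change came to 0.65 with a wide 95% interval of -0.33 to 1.64 (edgeR quasi-likelihood adjusted p = 0.676), and to 0.18 without Scd-1-/- replicate 1.

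The fourth survival gene, *Bcl2a1b* (ENSMUSG00000089929), lies on the plus strand of chromosome 9 from 89199209 to 89207827. It is 1 of several mouse copies of the gene for A1, and reads from near-identical copies can be split between them by the authors' counting, so its own level is uncertain. Coding sequences of *Bcl2a1b* and *Bcl2a1d* are 98.8% identical, with 6 differing positions among 516 bases, and *Bcl2a1a* is 97.9% identical to *Bcl2a1b*. The first 90 bases of the 3 coding sequences (GENCODE M21, GRCm38), which hold 6 of the 12 positions at which the 3 genes are not alike, are shown here to make plain how few bases tell the copies apart. Capitals mark the differing positions.
Bcl2a1a: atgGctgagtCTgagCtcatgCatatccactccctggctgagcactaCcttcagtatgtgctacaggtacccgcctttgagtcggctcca
Bcl2a1b: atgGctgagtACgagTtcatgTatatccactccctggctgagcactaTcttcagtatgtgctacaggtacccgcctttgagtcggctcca
Bcl2a1d: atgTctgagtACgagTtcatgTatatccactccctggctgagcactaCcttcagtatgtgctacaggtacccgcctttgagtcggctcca

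*Bcl2a1b* had 540, 338 and 443 counts in WT and 686, 674 and 840 counts in Scd-1-/- replicates 1 to 3. In FPKM these were 43.6, 29.5 and 38.1 in WT and 53.9, 58.5 and 64.8 in Scd-1-/- cells, so that every Scd-1-/- library lay above every WT library. Such a separation upwards was seen for 2 of the 10 members and for 8.4% of all genes, and a separation in either direction for 16.1% of all genes. The means were 37.1 ± 7.11 (SD, n = 3) and 59.1 ± 5.46 (SD, n = 3) FPKM, for a log2 fold change of 0.69 (SE 0.192, 95% interval 0.25 to 1.14). By edgeR its adjusted p was 0.263, or 0.0490 with the replicate block, and by DESeq2 0.0479. The nearest copy, *Bcl2a1d*, had 578, 317 and 414 counts in WT and 580, 605 and 753 counts in Scd-1-/- cells, and its log2 fold change was 0.53 (edgeR quasi-likelihood adjusted p = 0.493 without and 0.150 with the block). *Bcl2a1a* had 8 to 23 counts in any library, and *Bcl2a1c* had 5 counts in WT replicate 1 and 0 in the others. With the 4 copies summed, the log2 fold change was 0.61 (edgeR quasi-likelihood adjusted p = 0.363). A1 is also abundant in myeloid cells, whose summed marker CPM was 16.8 to 37.2 in WT and 21.5 to 64.7 in Scd-1-/- libraries, carried mostly by *Cd68*, with *Lyz2*, *Csf3r*, *S100a8* and *S100a9* at 3 counts or fewer in every library. Among these myeloid markers, *Cd14* had 11, 5 and 4 counts in WT and 28, 42 and 40 counts in Scd-1-/- replicates 1 to 3, and *Itgam* had 16, 0 and 5 against 83, 13 and 16 counts. Both were under the FPKM minimum. In a fit of all genes with a count, *Cd14* passed the thresholds of the study, as 148 of 17192 genes did. With the block, both had an adjusted p under 0.05 (log2 fold changes 2.41 and 2.43, edgeR quasi-likelihood adjusted p = 0.0287 and 0.0464). The share of all genes with such a p in that fit was not counted. The part of myeloid cells in the difference of *Bcl2a1b* was not tested.

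Of the pore-forming effectors, *Bax* (ENSMUSG00000003873) lies on the minus strand of chromosome 7 from 45461697 to 45466898. It had 189, 239 and 183 FPKM in WT against 168, 253 and 211 FPKM in Scd-1-/- replicates 1 to 3. Replicate 2 was the highest in both genotypes, and the groups lay across each other. The log2 fold change was 0.07 (SE 0.184, 95% interval -0.36 to 0.50, edgeR quasi-likelihood adjusted p = 0.943), and it was -0.02 without WT replicate 3 and -0.09 without Scd-1-/- replicate 2. *Bak1* (ENSMUSG00000057789, chromosome 17, 27019810 to 27029009, minus strand) had 43.4, 57.0 and 50.9 FPKM in WT against 50.1, 54.6 and 55.9 FPKM in Scd-1-/- libraries. Its log2 fold change was 0.11 (SE 0.135, 95% interval -0.20 to 0.43, edgeR quasi-likelihood adjusted p = 0.865). For *Bax*, *Bak1* and *Bcl2*, a 2-fold difference in either direction was outside the 95% interval.

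Of the BH3-only genes, *Pmaip1* (ENSMUSG00000024521) lies on the plus strand of chromosome 18 from 66458533 to 66465565 and encodes NOXA, which binds MCL1 and A1 and is a target of p53 and of ATF4. It had 356, 174 and 202 counts in WT and 527, 408 and 443 counts in Scd-1-/- replicates 1 to 3. In FPKM these were 8.87, 4.69 and 5.37 in WT and 12.8, 10.9 and 10.6 in Scd-1-/- cells, and the lowest Scd-1-/- library lay above the highest WT library. The mean was 6.31 ± 2.25 FPKM in WT against 11.4 ± 1.20 FPKM in Scd-1-/- cells (SD, n = 3 for both), for a log2 fold change of 0.87 (SE 0.270, 95% interval 0.25 to 1.50). This was the largest of the 10 fitted changes, and its adjusted p by edgeR was 0.317, or 0.0296 with the replicate block. The ratios within same-numbered pairs were 0.53, 1.23 and 1.04 on the log2 scale. *Pmaip1* was also the only member to pass the thresholds of the study in any fit run, which it did in replicates 2 and 3 alone, where 3.83% of all genes did (1.13, edgeR quasi-likelihood adjusted p = 0.00338) and without WT replicate 1 (1.22, adjusted p = 0.0360 from the same test).

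*Bbc3* (ENSMUSG00000002083, chromosome 7, 16308393 to 16318205, plus strand) encodes PUMA, which p53 and FOXO factors can induce and which binds all survival members. It had 22.3, 12.2 and 9.14 FPKM in WT against 30.8, 15.6 and 13.7 FPKM in Scd-1-/- replicates 1 to 3. Each Scd-1-/- library was above the WT library of its number, by 0.46, 0.37 and 0.65 on the log2 scale, but the spread between replicates of 1 genotype was larger than that between genotypes. The log2 fold change was 0.48 (SE 0.419, 95% interval -0.50 to 1.45, edgeR quasi-likelihood adjusted p = 0.792). The block narrowed this interval to 0.22 to 0.77, with an adjusted p of 0.0588 by the same test.

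*Bcl2l11* (ENSMUSG00000027381, chromosome 2, 128126038 to 128162547, plus strand), which encodes BIM, had 580, 285 and 220 counts in WT and 632, 503 and 427 counts in Scd-1-/- replicates 1 to 3. Its FPKM was 2.46, 1.31 and 1.00 in WT and 2.61, 2.30 and 1.73 in Scd-1-/- cells. WT replicate 1 lay among the Scd-1-/- libraries, and WT replicates 2 and 3 lay below all of them. The log2 fold change was 0.49 (SE 0.350, 95% interval -0.32 to 1.31, edgeR quasi-likelihood adjusted p = 0.711), 0.98 without WT replicate 1 and 0.84 in replicates 2 and 3 alone (adjusted p = 0.0341 by the same test).

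*Bid* (ENSMUSG00000004446, chromosome 6, 120891930 to 120916853, minus strand) encodes a protein that caspase-8 or granzyme B cuts into its active form. It had 5.16, 7.08 and 7.51 FPKM in WT against 5.01, 9.24 and 9.64 FPKM in Scd-1-/- replicates 1 to 3. Replicate 1 of both genotypes was low and nearly equal, and replicates 2 and 3 were higher in Scd-1-/- cells. The log2 fold change was 0.30 (SE 0.272, 95% interval -0.33 to 0.93, edgeR quasi-likelihood adjusted p = 0.795), and leaving out Scd-1-/- replicate 1 gave 0.54 and leaving out replicate 3 of that genotype 0.13. *Bid* overlaps *Bcl2l13* on the opposite strand by 913 bases, *Bcl2l13* held 1258 to 1375 counts per library, and the sources do not say whether strand was used in counting.

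**Figure D2:**
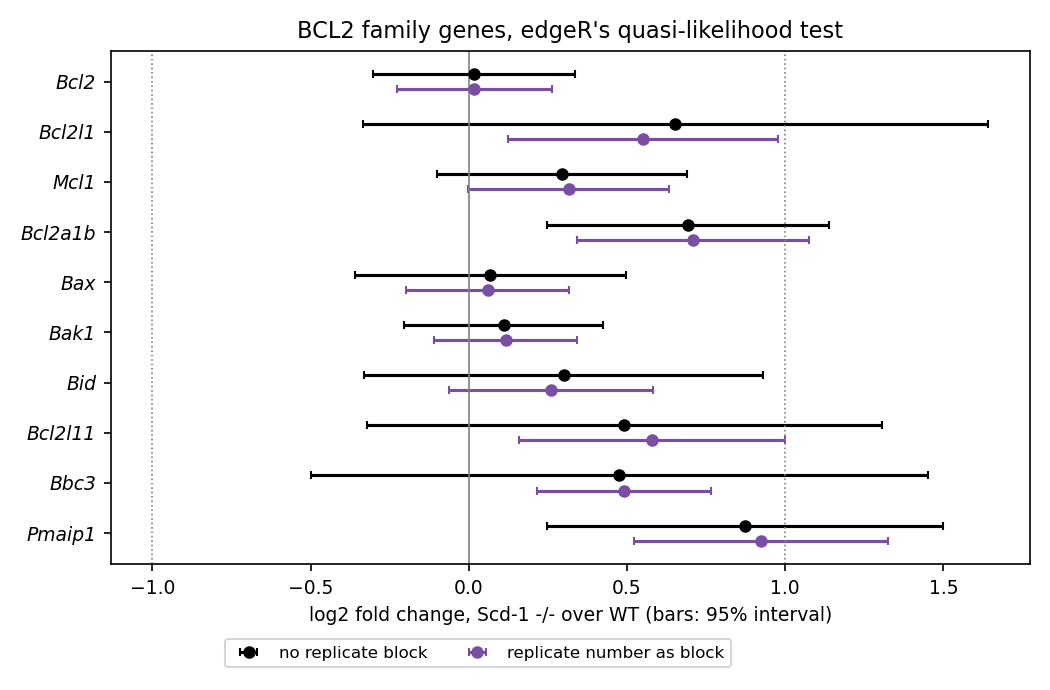
Log2 fold change (Scd-1-/- over WT) of the 10 genes from edgeR's quasi-likelihood test on 3 libraries per genotype, without the replicate block (black) and with it (purple). Bars are 95% intervals and dotted lines mark a 2-fold change; without the block the intervals of *Bcl2a1b* and *Pmaip1* leave out 0, and with it those of *Bcl2l1*, *Bcl2l11* and *Bbc3* do too, as do those of 22.4% of all genes.

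Set side by side by replicate number, 5 of the 10 genes (*Bcl2l1*, *Bcl2a1b*, *Bbc3*, *Pmaip1* and *Bcl2l11*) were higher in the Scd-1-/- library of all 3 pairs, as were 22.1% of all genes. None of the 10 was lower in all 3 pairs, as were 22.9% of all genes. In replicate 1 alone, *Mcl1*, *Bax* and *Bid* had ratios under 0, at -0.08, -0.18 and -0.05 on the log2 scale. Replicate 1 differed from replicates 2 and 3 in both genotypes for part of the family. *Bbc3*, *Pmaip1* and *Bcl2l11* were highest in replicate 1 of both genotypes, as were 30.2% of all genes, and *Bid* and *Bak1* were lowest there, as were 27.0%. *Bbc3* in replicate 1 was 2.17-fold (WT) and 2.12-fold (Scd-1-/-) the mean of the other replicates. For *Bcl2l11* the same quantity was 2.21-fold in WT and 1.31-fold in Scd-1-/- cells. The part of whatever sets replicate 1 apart in the values of these genes was not tested, and neither the labels nor the methods say what a replicate number stands for.

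**Figure D3:**
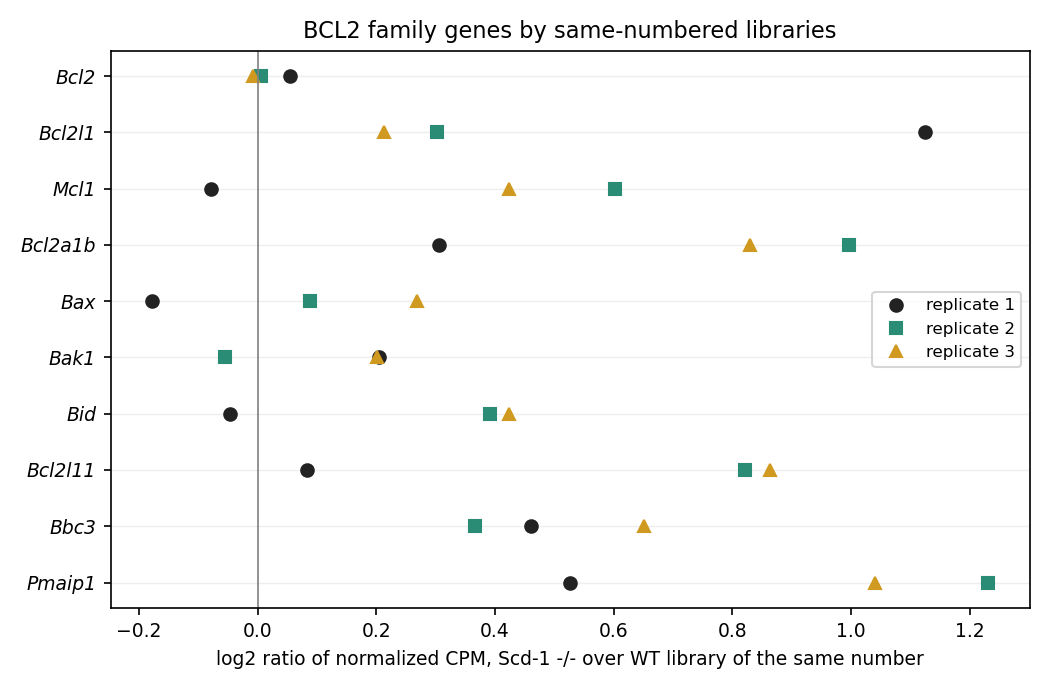
Log2 ratio of normalized CPM (CPM with TMM scaling) between the Scd-1-/- and the WT library of the same replicate number, for the 10 genes. All 3 points lie right of 0 for *Bcl2l1*, *Bcl2a1b*, *Bcl2l11*, *Bbc3* and *Pmaip1*, while those of *Bcl2* lie between -0.01 and 0.05.

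Promoters of *Bcl2l11* and *Bbc3* are shown because both genes can be induced by FOXO factors and both were highest in replicate 1, a choice made with their values known. A core forkhead motif, GTAAACA on either strand, was searched in windows from 250 bases before to 50 bases from each start site (RefSeq, GRCm38.p6). It was found in 1 window each of *Bcl2l11* and *Bbc3*, or 2 of the 14 windows listed for 9 of the 10 genes, and in 3.65% of all 32851 windows. No window was listed for *Pmaip1*, which was also highest in replicate 1 of both genotypes. The match, in capitals, begins 227 bases before the start site in *Bcl2l11*, and in *Bbc3*, where it lies on the opposite strand, 167 bases before it. A match in a window is not evidence that a factor binds there.
Bcl2l11, chr2:128125788-128126087, plus strand: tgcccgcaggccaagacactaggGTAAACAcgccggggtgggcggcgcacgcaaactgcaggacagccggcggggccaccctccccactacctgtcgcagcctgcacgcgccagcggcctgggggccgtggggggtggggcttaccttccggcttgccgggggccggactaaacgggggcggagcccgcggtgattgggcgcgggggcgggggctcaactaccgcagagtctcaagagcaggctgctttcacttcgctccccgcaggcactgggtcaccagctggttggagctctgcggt
Bbc3, chr7:16310011-16310310, plus strand: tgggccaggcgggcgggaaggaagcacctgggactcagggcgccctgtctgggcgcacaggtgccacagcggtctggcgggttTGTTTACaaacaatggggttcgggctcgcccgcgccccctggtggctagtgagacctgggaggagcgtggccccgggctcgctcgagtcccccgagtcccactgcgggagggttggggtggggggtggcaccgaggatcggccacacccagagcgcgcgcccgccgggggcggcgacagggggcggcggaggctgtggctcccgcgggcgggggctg

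The order of the levels was read from the FPKM, which is per length. In WT, *Bax* led with 204 ± 30.5 FPKM, then came *Bak1* (50.4 ± 6.84), *Mcl1* (44.9 ± 9.07), *Bcl2a1b* (37.1 ± 7.11) and *Bbc3* (14.5 ± 6.92), all SD with n = 3. *Bcl2*, *Bid*, *Pmaip1* and *Bcl2l1* lay between 6.83 and 4.24 FPKM, and *Bcl2l11* was last at 1.59 ± 0.773 (SD, n = 3). *Bax* exceeded *Bak1* in 6 of 6 libraries, and *Bcl2a1b* exceeded *Bbc3* in 6 of 6. *Bak1* and *Mcl1* could not be ordered, with *Bak1* higher in 3 of 6 libraries, and *Mcl1* was above *Bcl2a1b* in 3 of 3 WT libraries but in 0 of 3 Scd-1-/- libraries. *Bcl2* and *Bid* could not be ordered either, with *Bcl2* higher in 2 of 6. This order rests on the gene length inside the FPKM, which was close to the summed length of all transcripts of a gene for some (10032 bases for *Bcl2*, equal to its 2 GENCODE transcripts together) and close to that of 1 transcript for others (869 bases for *Bax*). Scaled instead to the longest coding transcript, a choice made after seeing the data, *Bcl2l1* moved from 4.24 to 19.7 and *Bcl2l11* from 1.59 to 4.90 on the same length-scaled unit in WT. On that scale *Bcl2l1* was above *Bcl2* (9.52) rather than below it, *Bak1* was above *Mcl1* in 6 of 6 libraries, *Mcl1* was above *Bcl2a1b* in 2 of 3 Scd-1-/- libraries rather than in 0, and *Bax* stayed first and *Bcl2l11* last.

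**Figure D4:**
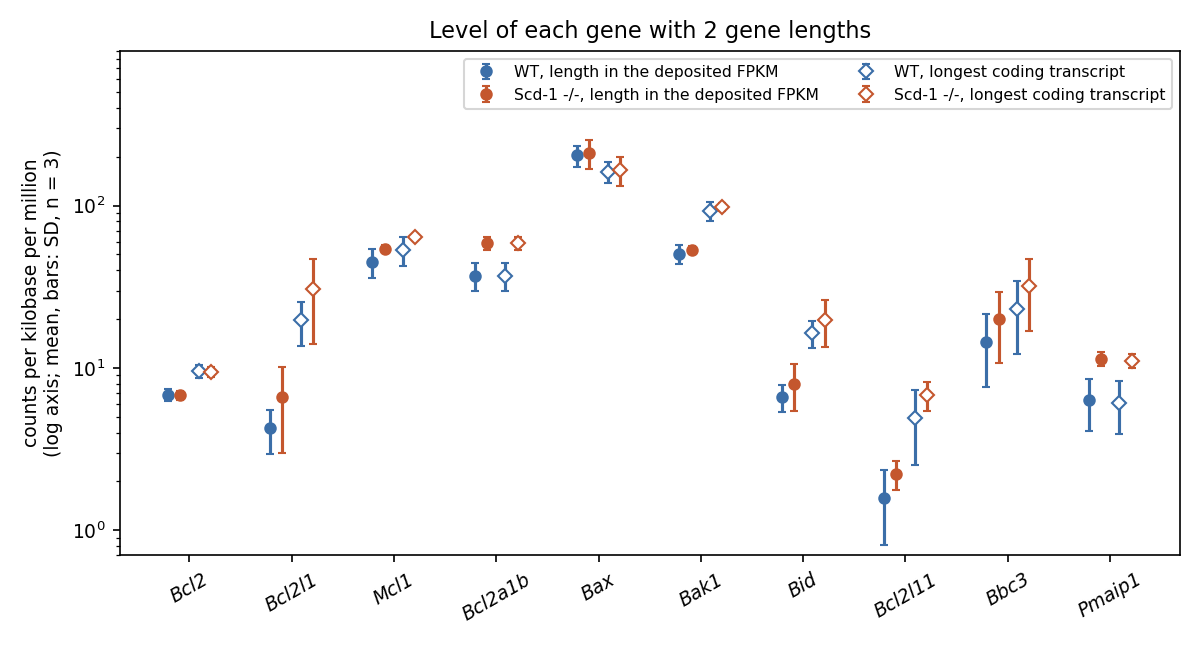
Mean level of each gene in WT (blue) and Scd-1-/- (orange) libraries in FPKM (log axis; bars are SD, n = 3), with the gene length inside the deposited FPKM (filled circles) and with the longest coding transcript (open diamonds). *Bcl2l1* moves most between the 2 lengths, from 4.24 to 19.7 in WT, and *Bax* is first under both.

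The rest of the family was read in the same way. Of 14 further BCL2 family genes, 7 reached the FPKM minimum, 0 passed either threshold, and their median log2 fold change was 0.00. *Bcl2l12* had a log2 fold change of -0.35 and *Bad*, a BH3-only gene tied to growth factor signals, of -0.21 (edgeR quasi-likelihood adjusted p = 0.636 and 0.841). *Bmf*, a BH3-only gene, was below the minimum at 0.876 ± 0.606 FPKM in WT against 0.782 ± 0.310 FPKM in Scd-1-/- cells (SD, n = 3 for both). *Hrk* and *Bcl2l10* had 0 counts in every library, which allows up to 3 counts each.

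Downstream of the mitochondrion, 0 of 12 genes for the apoptosome and the executioner caspases passed either threshold, and their median log2 fold change was -0.13. *Casp6*, an executioner caspase, was at 4.78 ± 0.665 FPKM in WT against 2.66 ± 0.977 FPKM in Scd-1-/- cells (SD, n = 3 for both), for a log2 fold change of -0.82 (edgeR quasi-likelihood adjusted p = 0.367 without and 0.0544 with the replicate block). *Htra2* and *Dffb* had log2 fold changes of -0.48 and -0.34. Of 9 genes for inhibitors of apoptosis, 6 were tested and 0 passed without the block. With it *Naip2*, a sensor of bacterial proteins named for its kinship to these inhibitors, passed (log2 fold change 0.80, edgeR quasi-likelihood adjusted p = 0.0389). In that fit 4.7% of all genes had an adjusted p under 0.05. *Naip2* belongs to a family of close copies, and its reads may be shared among them. *Birc6*, *Birc3* and *Birc2* had log2 fold changes of 0.24, -0.27 and -0.22.

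In the death receptor pathway, which can feed into the family through BID, 1 gene of 10 met both thresholds of the study, as 0.738% of all genes did. *Fas*, the receptor, fell from 8.02, 8.31 and 9.60 FPKM in WT to 3.39, 3.78 and 4.34 FPKM in Scd-1-/- replicates 1 to 3, for a log2 fold change of -1.15 (edgeR quasi-likelihood adjusted p = 0.0921, 0.0156 with the block). *Fasl*, its ligand, had 9.90, 11.2 and 12.8 FPKM in WT against 11.7, 28.1 and 28.4 FPKM in Scd-1-/- replicates 1 to 3. Only replicates 2 and 3 of Scd-1-/- cells stood above every WT library. All 3 Scd-1-/- libraries were above the WT library of their number, as for 22.1% of all genes. The log2 fold change of 1.03 did not pass (edgeR quasi-likelihood adjusted p = 0.346). *Tnfsf10*, which encodes TRAIL, and *Tradd* had log2 fold changes of 0.48 and 0.31 (edgeR quasi-likelihood adjusted p = 0.381 and 0.529). Their groups did not overlap, as for 16.1% of all genes in either direction.

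Among regulators of p53 and its targets, a pathway that can induce *Bbc3*, *Pmaip1* and *Bax*, 14 of 16 genes were tested and 0 passed without the block. Their log2 fold changes were above 0 for 11 of 14, against 49.9% of all genes, with a median of 0.43, against 0.00 over all genes, and none of the 10 family members was in this list. The 3 below 0 included *Sesn1* at -0.21, lower in all 3 same-numbered pairs, as were 22.9% of all genes. With the block, *Cdkn1a*, the cell cycle inhibitor p21, *Sesn2*, a stress-induced brake on mTORC1 that ATF4 also induces, and *Aen*, a nuclease, had an adjusted p under 0.05 and were higher in Scd-1-/- cells (edgeR quasi-likelihood adjusted p = 0.0112, 0.0259 and 0.0426), or 3 of 14 genes where 2.64% of all genes did so. *Sesn2* had 12.7, 15.2 and 12.2 FPKM in WT against 30.5, 21.4 and 21.2 FPKM in Scd-1-/- libraries, with no overlap, as for 16.1% of all genes in either direction. *Cdkn1a* had 35.0, 69.7 and 57.3 FPKM in WT against 56.7, 102 and 101 FPKM in Scd-1-/- libraries. *Mdm2*, the ubiquitin ligase for p53, had a log2 fold change of 0.47 and *Ccng1* of 0.77 (edgeR quasi-likelihood adjusted p = 0.387 and 0.361). *Trp53* itself was at 41.8 ± 14.3 FPKM in WT against 39.3 ± 8.36 FPKM in Scd-1-/- cells (SD, n = 3 for both). The part of p53 in the values of the BCL2 family genes was not tested.

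Among FOXO factors and targets, *Ccng2*, *Cited2* and *Foxo1* had log2 fold changes of -0.48, 0.46 and -0.25 and did not pass. Of 15 genes for the cytokine survival signal, 14 were tested and 0 passed without the block. With it, where 4.7% of all genes had an adjusted p under 0.05 in either direction, 2 had one, both lower in Scd-1-/- cells. These were *Il4ra*, a chain of the IL-4 receptor (31.5, 37.8 and 35.5 FPKM in WT against 25.8, 19.8 and 17.3 FPKM in Scd-1-/- replicates 1 to 3), and *Stat5b*, which carries the IL-2 signal to the genome (33.9 ± 5.13 and 22.6 ± 2.67 FPKM, SD, n = 3 for both). Their log2 fold changes with the block were -0.73 and -0.56 (edgeR quasi-likelihood adjusted p = 0.0334 and 0.0498). *Il2rb*, the signalling chain for IL-2 and IL-15, had a log2 fold change of 0.34 and *Stat5a* of -0.43, and neither passed.

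None of the 6 tested genes for the turnover of MCL1 protein passed, of 7 listed, and their log2 fold changes lay between -0.19 and 0.21. They included *Huwe1*, which encodes the ubiquitin ligase MULE (-0.08), *Usp9x*, a deubiquitinase of MCL1 (0.08), *Gsk3b* (0.21) and *Btrc* (-0.19). Of the 11 mitochondrial genes listed, most of them for the outer membrane channel or for fission and fusion, 0 passed, with values between -0.36 for *Immt* and 0.20. *Vdac1*, the most abundant of the 3 channel genes, was at 152 ± 13.9 FPKM in WT against 122 ± 9.71 FPKM in Scd-1-/- cells (SD, n = 3 for both), and its log2 fold change was -0.29 (edgeR quasi-likelihood adjusted p = 0.473). *Mfn2* and *Vdac3* had log2 fold changes of -0.30 and 0.19.

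**Figure D5:**
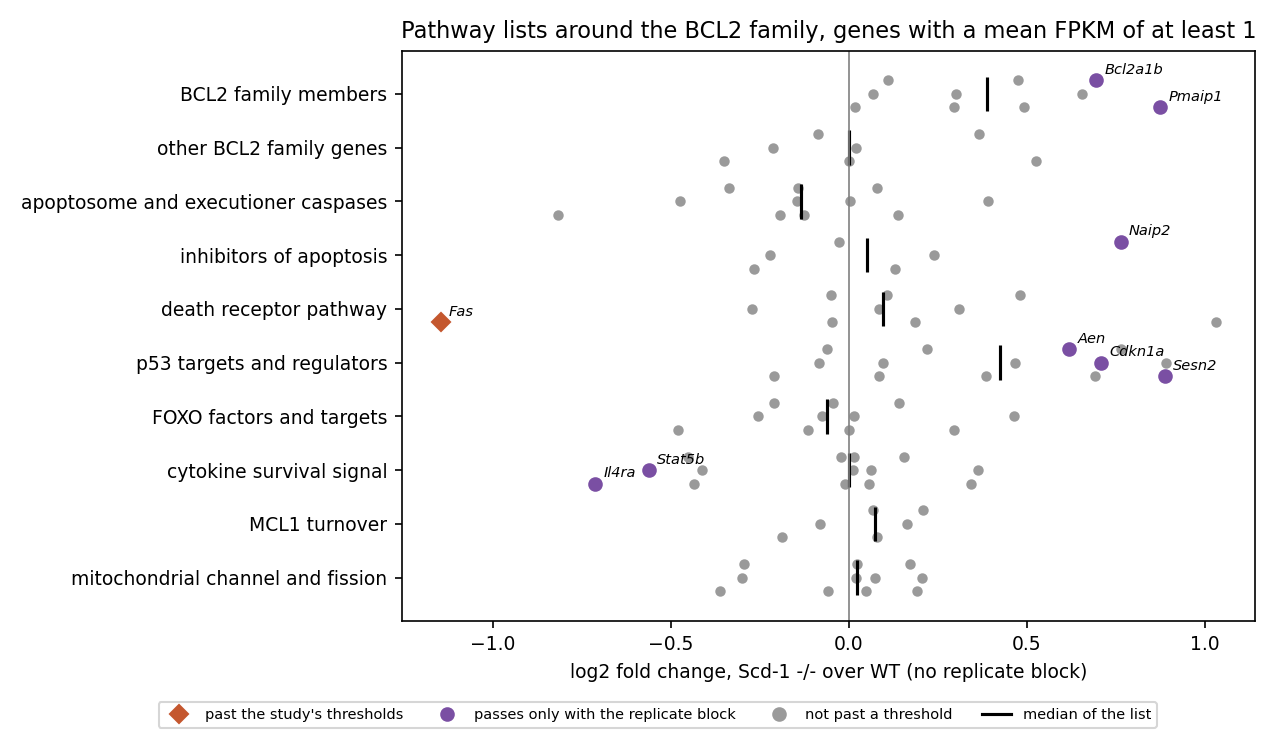
Log2 fold change (Scd-1-/- over WT, without the replicate block) of tested genes in the lists around the BCL2 family (2 of them are not drawn), with vertical bars for the medians of the whole lists. *Fas* passed the thresholds of the study (diamond), and *Bcl2a1b*, *Pmaip1*, *Naip2*, *Aen*, *Cdkn1a*, *Sesn2*, *Il4ra* and *Stat5b* passed only with the block (purple).

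Some markers of other cells differed between the genotypes. The summed CPM of 8 natural killer cell markers, of which 5 were tested, was 147, 103 and 122 in WT and 151, 332 and 335 in Scd-1-/- replicates 1 to 3. *Fcer1g* and *Tyrobp*, genes for signalling adaptors, passed the thresholds of the study (log2 fold changes 2.68 and 3.23), as 0.738% of all genes did. *Klrb1c* and *Klrc1*, genes for lectin-like receptors that activated CD8+ T cells can also carry, passed with the block (2.88 and 1.59, edgeR quasi-likelihood adjusted p = 0.00591 and 0.0393). With the block 4.7% of all genes had an adjusted p under 0.05. *Ncr1*, the most defining marker of natural killer cells, had 0 to 5 counts in WT and 0 to 2 counts in Scd-1-/- libraries, and *Klra4* and *Klra8* had at most 3 counts. The B cell marker sum was 317 to 613 CPM in WT and 218 to 332 CPM in Scd-1-/- libraries, nearly all of it *Ighm*, and *Cd79b* and *Ighm* passed only with the block, both lower (edgeR quasi-likelihood adjusted p = 0.0434 and 0.0262). *Cd79a*, *Ms4a1* and *Pax5* had at most 3 counts in every library. *Gzmb*, a marker of effector cells, passed with the block (log2 fold change 0.87, edgeR quasi-likelihood adjusted p = 0.0208). The sum of 5 CD4 T cell markers was 392 to 464 CPM in WT and 417 to 485 CPM in Scd-1-/- libraries, nearly all of it *Ctla4* and *Zbtb7b*. *Cd4* itself went the other way, with 8, 24 and 12 counts in WT and 5, 2 and 1 counts in Scd-1-/- replicates 1 to 3, and did not pass. *Foxp3* and *Cd40lg* had at most 5 counts in any library. The part of other cells in the values of the BCL2 family genes was not tested.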

How the data were processed

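The series holds RNA-seq of 3 WT and 3 Scd-1-/- libraries of cultured CD8+ Teff. The authors aligned reads with HISAT2 and quantified them with StringTie 1.3.0 on GRCm38, per the submitters' processing notes, and deposited a raw count and an FPKM value per gene and library. The labels name a polyA library kit and the methods a stranded total RNA kit, and whether strand was used in counting is not given in the sources used here. The FPKM deposited by the authors is the count scaled to gene length and library total, with no further scaling between libraries.

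Genes whose FPKM averaged at least 1 (9627) were fitted with edgeR 4.0.16 (R 4.3.3; TMM, glmQLFit, glmQLFTest, Benjamini-Hochberg adjustment), genotype being the only term. Calls used the thresholds of the study (p under 0.001, log2 fold change of at least 1 in either direction) or an adjusted p under 0.05. Intervals are 95% intervals. Deviations from the group means of same-numbered WT and Scd-1-/- libraries correlated across genes at 0.595, 0.306 and 0.470 for numbers 1, 2 and 3. The labels give no reason for the numbers, so the pairing comes from the data, and a fit with the replicate number as a block is given where it changed a call. DESeq2 1.42.0, limma 3.58.1, other filters and left-out libraries were alternatives, and the edgeR fits were tested on simulated data.

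GENCODE M21 and RefSeq gave positions and sequences. Of the gene IDs, 34267 (98.6%) were in GENCODE M21. Named were the 10 members, *Scd1*, the *Bcl2a1* copies, list genes called with or without the block and the 4 genes of smallest p in each pathway list. *Cd3e*, *Bmf*, *Hrk*, *Bcl2l10*, *Trp53*, *Sesn1*, *Cd68*, *Cd8a*, *Cd8b1*, *Cd4*, *Ctla4*, *Zbtb7b* and marker genes at or near 0 were named after their values were seen. The members and lists were chosen with earlier results of these data known. Some genes of these lists are not reported here.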

Additional observations from a re-analysis of the deposited data

How the results depend on the processing

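The fold changes of the 10 genes were recomputed under each alternative, and 124 values kept their direction and side of the threshold, 8 newly passed an adjusted p of 0.05 and 8 changed sign, all 8 of *Bcl2* or *Bax*. *Bcl2* came to -0.0050 by limma on log2(FPKM + 1), to -0.0055 by limma on log2(FPKM + 0.1) and to -0.00093 in replicates 2 and 3 alone, and leaving out 1 library gave -0.036 to 0.069. For *Bax*, leaving out 1 library gave -0.086 to 0.20. The same ranges were 0.70 to 1.22 for *Pmaip1*, 0.55 to 0.85 for *Bcl2a1b*, 0.18 to 0.99 for *Bcl2l1*, 0.02 to 0.95 for *Bbc3*, 0.23 to 0.98 for *Bcl2l11*, 0.13 to 0.54 for *Bid*, 0.19 to 0.49 for *Mcl1* and 0.03 to 0.21 for *Bak1*. *Bcl2l11* had a mean FPKM under 5 and has no value under that filter.

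The number of the 10 genes with an adjusted p under 0.05 was 0, and it was 1 with DESeq2, 2 with the replicate block, 4 in replicates 2 and 3 alone and 0 to 1 with 1 library left out (1 without WT replicate 1). The number past the thresholds of the study was 0, and 1 in replicates 2 and 3 alone, with 0 to 1 when 1 library was left out (1 without WT replicate 1). Over all genes, 71 passed the thresholds of the study, against 148 with no filter, 43 at a mean FPKM of at least 5, 161 with DESeq2, 184 with the replicate block, 369 in replicates 2 and 3 alone and 25 to 163 with 1 library left out. An adjusted p under 0.05 was given to 11 genes, against 84 with no filter, 18 at a mean FPKM of at least 5, 266 with DESeq2, 17 by limma on log2(FPKM + 1), 452 with the replicate block, 1213 in replicates 2 and 3 alone and 2 to 182 with 1 library left out. Among these left-out libraries the counts were highest without a replicate 1 library (163 and 182 without that of Scd-1-/- Teff, 143 and 133 without that of WT), and the cause was not tested. Among the 10 genes the block changed no call but those of *Pmaip1* and *Bcl2a1b*.

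With 3 libraries per genotype, an exact permutation test of 1 gene cannot go below p = 0.1, and genes of few counts such as *Bcl2a1a* were measured too coarsely for a difference of the size seen in *Bcl2a1b* to be told.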
